A study of Mus musculus with 2 samples.

Results

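Gene-end peaks are the stretches of open chromatin that lie in the 3' UTR of a gene or just beyond its last base. They were taken from the authors' table of ATAC-seq peaks in mouse heart by its own annotation, as every peak labelled 3' UTR or Downstream (within 3 kb past a gene). Of 58076 peaks, 1532 (2.64%) met this rule, 788 in the 3' UTR class and 744 in the downstream class. The downstream class held 250 peaks within 1 kb of a gene, 234 at 1 to 2 kb and 260 at 2 to 3 kb. ATAC-seq uses the Tn5 transposase to cut and tag accessible DNA, so that reads pile up where chromatin is open. The control library came from hearts of Ythdc1 flox/flox mice, which carry the floxed allele and no stated deletion. The knockout library came from hearts of Ythdc1 CKO mice, a conditional deletion of Ythdc1. All mice were on normal chow and 15 days of age. The Cre line that drives the deletion, the cells it acts in, and the number of animals in a library are not given in the sources used.

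Each genotype had a single library, so differences between animals could not be measured, no test was possible and no p-value is given. Each peak is described by its count in the control, its count in the knockout and their ratio, after division by the 6755590 and 6466537 counts that all peaks held. Each ratio has an exact (Clopper-Pearson) 95% interval that covers counting error only. A difference of 2-fold was a fixed rule of size, and log2 ratios used 0.5 added counts. In whole heart tissue, fewer cells of a type and less open chromatin per cell cannot be told apart. The labelled tissue was checked at promoters, where 6 of 8 cardiomyocyte markers had a peak and Myl2 and Nppa had none. Ythdc1 itself held no gene-end peak. Its promoter peak, the only peak over the gene, had 358 control counts and 314 knockout counts, and this does not check the deletion because the deleted part is not given.

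A gene's end is where transcription stops being productive. The 3' UTR follows the stop codon and ends at the site where the RNA is cut and polyadenylated, and RNA polymerase II runs on past that site before it is released. The RNA mark m6A is enriched near stop codons and in 3' UTRs, and YTHDC1 is its nuclear reader, with known roles in splicing, in the choice of polyadenylation site and in RNA export. ATAC-seq reads the DNA of these places and neither the mark nor the RNA. Open chromatin at a gene end may be a regulatory element of that gene or of another one.

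The peaks' own sequences are not shown, since the gene-end stretches were available only as coordinates. The sequences shown are short stretches of the promoters of the 4 genes whose gene-end peak and promoter peak both differed by at least 2-fold, which are Ankrd1, Ralgps2, Lrtm1 and Kcnh6. They are from RefSeq (GRCm38.p6), 30 bases each, 5′ to 3′ on the gene's strand. Capitals mark a match to a motif searched on both strands in the 300 bases from 250 before to 50 after the start site. The TEAD motif was searched as CATTCC. The AP-1 motif was searched as TGANTCA, and the GATA motif as AGATAA. The CRE motif was searched as TGACGTCA, and the CArG box is named only. No match overlapped another in the stretches shown. For Ralgps2 and Kcnh6 no motif was found in this window, and the 30 bases before the start are shown.
Ankrd1, chr19:36120037-36120066, minus strand, TEAD match 210 bases before the start: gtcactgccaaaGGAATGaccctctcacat
Ankrd1, chr19:36119950-36119979, minus strand, TEAD match 123 bases before the start: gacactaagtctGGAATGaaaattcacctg
Ankrd1, chr19:36119874-36119903, minus strand, GATA match 47 bases before the start: caggctggaagaTTATCTcacccagcccta
Lrtm1, chr14:29018078-29018107, plus strand, AP-1 match 119 bases before the start: ccagtgagggtTGACTCAgcacggttgata
Ralgps2, chr1:156939627-156939656, minus strand: ccccgcccgcccggcgcgcgccccctgcgc
Kcnh6, chr11:106008118-106008147, plus strand: agcccgacgctgctgagccccaggactgac

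Such matches are common. Over 32851 RefSeq promoter windows of the same 300 bases, a TEAD match stood in 14.7%, a GATA match in 11.2%, an AP-1 match in 7.81%, a CRE match in 1.79% and a CArG box in 1.63%.

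Relative to all peaks, gene ends as a whole were about as open in the knockout as in the control. The scaling sets the totals of all peaks equal, and on the RPM scale the median log2 ratio of gene-end peaks was -0.16. The control library held 126999 counts there (95% Poisson interval 126301 to 127699) and the knockout library 125975 (125280 to 126673), 1.88% and 1.95% of all counts in peaks. The ratio of the scaled sums was 1.04 (1.03 to 1.04), and 1.02 without the Ankrd1 peak. The log2 ratio had a median of 0.01 and an SD of 0.75 across peaks, with a 95% interval of -0.02 to 0.04 that treats peaks as independent draws. All peaks of the table had a median of -0.05, and the 32021 exon, intron and distal intergenic peaks had a median of -0.11.

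The downstream class stood slightly higher than the 3' UTR class. The 3' UTR peaks held 65154 and 62289 counts, a ratio of 0.999 (0.988 to 1.01). The downstream peaks held 61845 and 63686 counts, a ratio of 1.08 (1.06 to 1.09), or 1.05 (1.04 to 1.06) without Ankrd1. The median log2 ratio was -0.03 (-0.09 to 0.01) in 3' UTRs and 0.06 (0.01 to 0.13) downstream, and these intervals meet at their edges. On the scale of the authors' RPM values, which moves every log2 ratio by about -0.17, the medians were -0.20 and -0.11. The sign of the downstream median thus depends on the scaling. A shift that is nearly the same for all peaks cannot change the order of the classes, so the RPM scale is no check of that order. The knockout was the higher library in 376 of 788 3' UTR peaks (47.7%) and 404 of 744 downstream peaks (54.3%), against 45.9% of all peaks. The same order appeared inside each part of the signal range. In the highest of 4 equal classes of signal, the median was 0.05 in 3' UTRs and 0.12 downstream, and in the lowest class it was -0.28 and -0.05. The order was not found among the 222 peaks with no matched RefSeq gene end, where the median was 0.06 for 77 3' UTR peaks and -0.04 for 145 downstream peaks.

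The share of peaks with a large difference was similar in both classes. A knockout level at least 2-fold above the control was found at 137 gene-end peaks (8.94%), against 6.09% of all 58076 peaks. A level at least 2-fold below it was found at 145 (9.46%), against 8.96% of all peaks. All peaks include the promoter peaks within 1 kb of a start, of which 2.70% were higher and 2.87% lower. Of the 38710 peaks outside these promoters, 7.79% were at least 2-fold higher and 12.0% at least 2-fold lower. On the RPM scale the split of gene-end peaks was 90 higher and 197 lower. That scale moves the log2 ratio of every peak of the table by about -0.17. The shares of all peaks on it are not given here, so the percentages above do not apply to that split. Among 3' UTR peaks 65 were higher (8.25%, exact interval 6.42% to 10.4%) and 78 lower (9.90%, 7.90% to 12.2%). Among downstream peaks 72 were higher (9.68%, 7.65% to 12%) and 67 lower (9.01%, 7.05% to 11.3%). Past 2-fold in either direction were 18.1% of 3' UTR peaks and 18.7% of downstream peaks, and the intervals of all these shares overlapped.

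**Figure D1:**
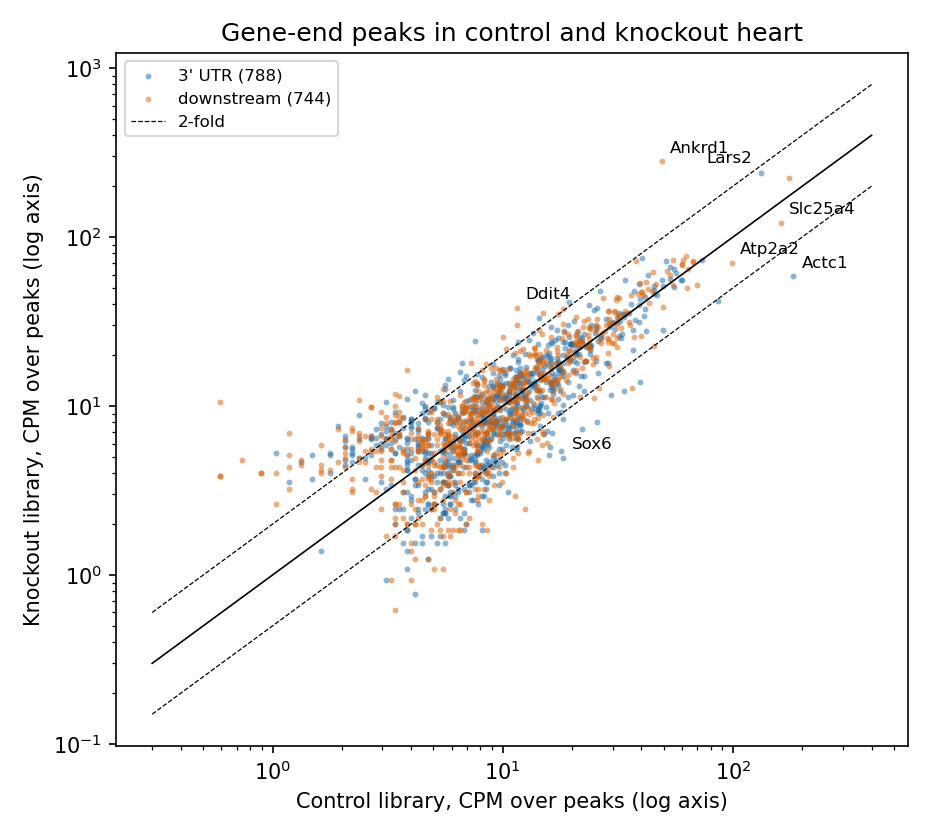
Counts scaled to the total in peaks (CPM) in the control (x axis) and the knockout (y axis), both axes logarithmic; each point is a gene-end peak, blue for 3' UTR and orange for downstream, with a solid line at equal values and dashed lines at 2-fold. The cloud lies along the line of equal values, and the downstream Ankrd1 peak, at 49.1 CPM in the control and 281 in the knockout, lies far from it.

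Most of the large differences were in weak peaks that were called in a single library. Gene-end peaks had a median scaled count (CPM) of 8.66 in 3' UTRs and 8.29 CPM downstream, against 9.41 CPM for all peaks and 7.35 CPM for those outside promoters, and a median width of 310 bases. A total of 713 (46.5%) was called in both libraries, against 55.0% of all peaks and 44.2% of those outside promoters. Of these, 5 were past 2-fold on the higher side and 13 on the lower side, with a median log2 ratio of 0.09. The 304 peaks called in the knockout alone held 132 of the higher peaks and none of the lower ones. The 515 called in the control alone held 132 of the lower peaks and none of the higher ones. A peak called in 1 library alone had been selected for a high count there. In the lowest class of signal, up to 5.47 CPM, 20.4% of gene-end peaks were past 2-fold on the higher side and 20.4% on the lower side. Among exon, intron and distal intergenic peaks of the same range, 13.9% were higher and 23.5% lower. In the class above 14.2 CPM, 3.39% of gene-end peaks were higher and 2.61% lower, near the 2.71% and 2.46% of those other peaks.

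**Figure D2:**
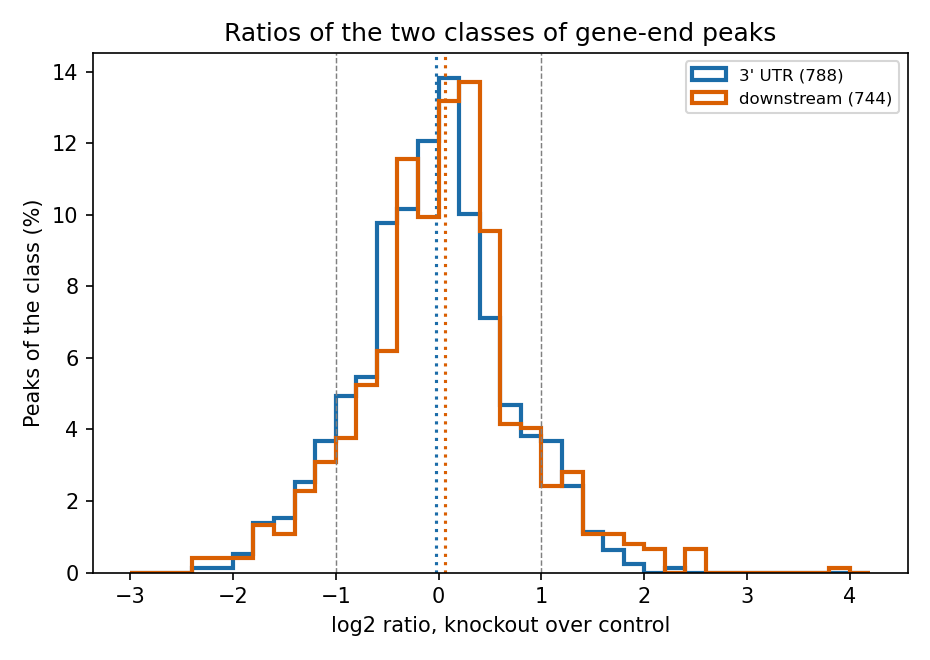
Share of the peaks of each class (y axis, percent) by log2 ratio of knockout to control (x axis), blue for 3' UTR and orange for downstream, with dotted lines at the medians and dashed lines at 2-fold. The medians of -0.03 and 0.06 lie close together inside distributions that are far wider.

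The gene whose end a peak sits at was found from RefSeq, because the table assigns each peak to the gene with the nearest start site. A RefSeq gene end was matched for 1310 of 1532 peaks (85.5%), over 1183 genes. Of these peaks, 1207 were at protein-coding genes, 80 at lncRNA genes and 23 at other genes. The 222 unmatched peaks included 4 on unplaced sequences. Another coding gene on the opposite strand ended within 3 kb at 169 of the matched peaks, and their median log2 ratio was 0.03 (-0.10 to 0.15) against 0.01 at the rest. The table's assigned gene was compared with the gene at whose end the peak lay by their spans, not by name. They were counted as the same where the overlap was at least 0.5 of the union of both spans. This held at 649 of 1310 peaks (49.5%). A gene whose span differs between the annotations can fail this rule, so the share may be too low. In the deposited table's own annotation, gene-end peaks were at least 3001 bases from the nearest start, with a median distance of 8.08 kb. By RefSeq, 37 of the 1310 matched peaks lay within 3 kb of the start of another coding or lncRNA gene, and 5 of them overlapped it, among them the Dusp1 peak (start of Gm34455) and the Meis1 peak (8430419K02Rik). At protein-coding genes, 56 of 496 downstream peaks were past 2-fold on the higher side and 37 on the lower side, with a median log2 ratio of 0.12. At lncRNA genes, 4 of 80 were higher and 11 lower, with a median of -0.05 (-0.26 to 0.09). Of all 58076 peaks, 6.09% were at least 2-fold higher and 8.96% at least 2-fold lower. The lncRNA counts are small, and no difference between the 2 kinds of gene is read from them.

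Along the gene end, the highest medians lay in the first 2 kb beyond it. Peaks with their midpoint more than 5 kb before the end had a median log2 ratio of -0.16 (147 peaks), those from 5 to 2 kb before it -0.08 (174) and those from 2 to 1 kb before it -0.07 (130). The 231 peaks in the last 1 kb had a median of 0.02. In the first 1 kb beyond the end the median was 0.14 (0.06 to 0.22, 221 peaks), and from 1 to 2 kb beyond it 0.17 (0.01 to 0.26, 197 peaks). From 2 to 3 kb beyond the end it was back at -0.05 (-0.17 to 0.06, 183 peaks). The intervals of neighbouring bins overlapped in every case.

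**Figure D3:**
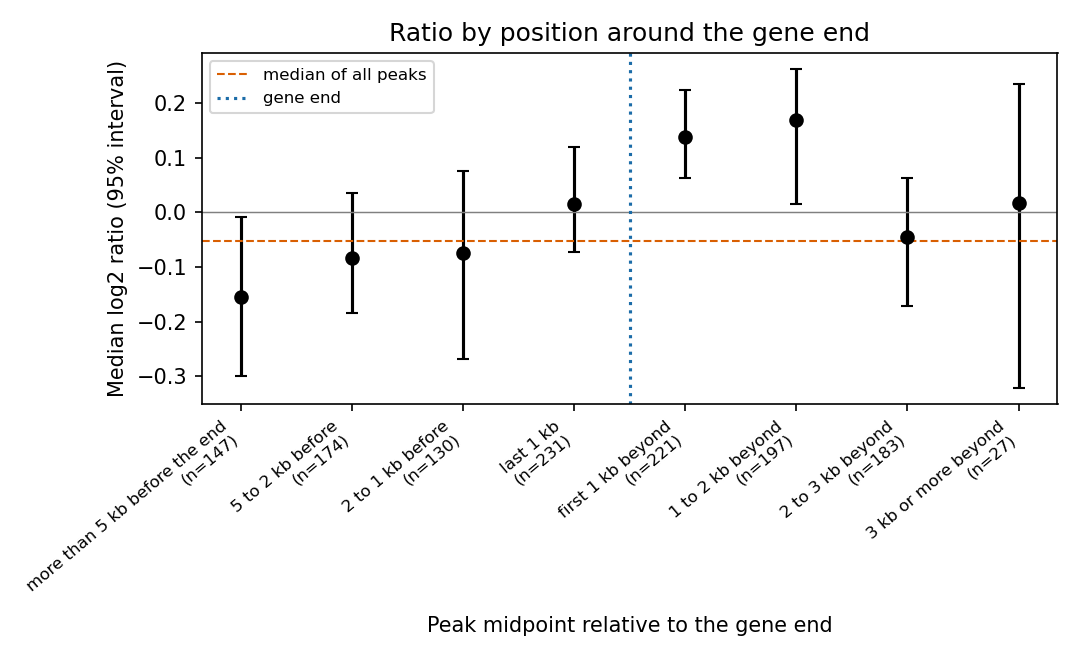
Median log2 ratio of knockout to control by the distance of the peak's midpoint from the RefSeq gene end, with 95% intervals over peaks as bars, the number of peaks under each bin, and a dashed line at the median of all peaks. The medians are -0.16 far inside the gene, 0.14 and 0.17 in the first 2 kb beyond its end and -0.05 from 2 to 3 kb.

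Of the 100 highest ratios among all 58076 peaks, 5 were gene-end peaks, and all 5 were downstream ones. They included Ankrd1 and the weak peaks of Adgrg6 (5 and 31 counts), Gas2l3 (4 and 25) and Snx6 (4 and 25), the last 3 singled out after their values were seen. No gene-end peak was among the 100 lowest. Gene-end peaks made up 2.64% of all peaks, so such counts are small and no trait of gene ends is read from them.

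Matrix genes differed in both directions at their ends. Eln encodes elastin, the elastic fibre protein of vessel walls. Its 3' UTR peak held 44 control counts and 103 knockout counts, a ratio of 2.45 (1.70 to 3.56), and its downstream peak held 23 and 65 (2.95, 1.81 to 4.98). Its promoter ratio was 1.36 (1.16 to 1.60). All 3 intervals lay above 1, but they cover counting error only and come from the same 2 libraries, so they are not replicates. The 3' UTR peak was also named for its high ratio. Col5a1, a fibrillar collagen chain, went the other way in its 3' UTR, with 56 and 19 counts (0.354, 0.199 to 0.606), while its promoter held 167 and 181. Col4a2, of the basement membrane, had 282 and 351 counts downstream, and the growth factor gene Tgfb1 had 267 and 348, ratios of 1.30 and 1.36. Of 42 genes in the matrix list, 6 had a gene-end peak, 8 peaks in all. Of these, 5 were above and 3 below equality, 3 at least 2-fold higher and 1 at least 2-fold lower, with a median log2 ratio of 0.41. Over all peaks of the table, 6.09% were at least 2-fold higher and 8.96% at least 2-fold lower.

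Ankrd1 had the strongest gene-end peak of the knockout library. It encodes the cardiac ankyrin repeat protein, a nuclear and titin-associated factor that is induced when heart muscle is stressed. Its downstream peak begins 95 bases past the gene end (chromosome 19, 36110149 to 36111870) and held 332 control counts against 1814 knockout counts. The ratio was 5.71 (5.08 to 6.44), and the peak was called in both libraries. Its promoter, with the TEAD and GATA matches shown above, held 181 and 507 counts (2.93, 2.46 to 3.49). Ankrd1 was the only gene with a gene-end peak and a promoter peak that were both at least 2-fold higher. It was also the only 1 of 25 fetal and stress genes with a peak at its end.

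Contractile genes held both lower peaks and peaks near equality. Actc1, the cardiac alpha-actin, had the strongest 3' UTR peak of the control, 1238 counts against 379 in the knockout (chromosome 2, 114046189 to 114047584). The ratio was 0.320 (0.284 to 0.359), the peak was called in the control alone, and its promoter held 335 and 184 counts (0.574, 0.477 to 0.689). Csrp3, the Z-disc muscle LIM protein, had 201 and 152 counts downstream (0.790, 0.636 to 0.980). The titin gene Ttn had 2 downstream peaks on opposite sides of equality, with 109 and 87 counts at the peak nearer to the gene and 140 and 157 at the farther one, both with intervals that include 1. Of 36 sarcomere and Z-disc genes, 5 had gene-end peaks, 6 in all. Only Actc1 was past 2-fold, 2 peaks were above equality and 4 below, and the median log2 ratio was -0.30, or 0.12 among peaks called in both libraries. Of all 58076 peaks, 45.9% were above equality, 6.09% at least 2-fold higher and 8.96% at least 2-fold lower.

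All 6 gene-end peaks of the calcium handling and ion channel list were lower in the knockout, with a median log2 ratio of -0.62. Over all peaks of the table, 45.9% were above equality and 8.96% were at least 2-fold lower. The list was chosen with earlier results of these data known. Kcnj5, a subunit of the acetylcholine-activated potassium channel of the atrium, had 51 and 21 counts (0.430, 0.246 to 0.728) at one downstream peak and 270 and 167 (0.646, 0.530 to 0.787) at the other. The potassium channel gene Kcna5 had 109 and 71 counts (0.680, 0.497 to 0.926). Its promoter went the other way, with 181 and 252 counts. Atp2a2, the calcium pump SERCA2 of the sarcoplasmic reticulum, had 667 and 457 counts (0.716, 0.634 to 0.807). The intervals of these 4 peaks lay below 1, and the weaker Kcnj5 peak was the only 1 of the list past 2-fold. The 6 peaks come from 4 of the 36 genes of that list. The channel subunit gene Kcne1, not in the list and singled out after its values were seen, was also lower, with 263 and 203 counts in its 3' UTR and 250 and 166 downstream.

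The 6 gene-end peaks of cardiac transcription factor genes, at 4 of 34 genes, had ratios below 1, none past 2-fold. Their median log2 ratio was -0.13 against -0.05 over all peaks, of which 45.9% were above equality and 8.96% at least 2-fold lower. Mef2a, a regulator of muscle genes, had 96 and 59 counts in its 3' UTR (0.642, 0.456 to 0.897). The intervals of the other 5 peaks included 1, such as those of Meis1 (91 and 67 counts, 0.769) and Meis2 (49 and 42, 0.895).

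**Figure D4:**
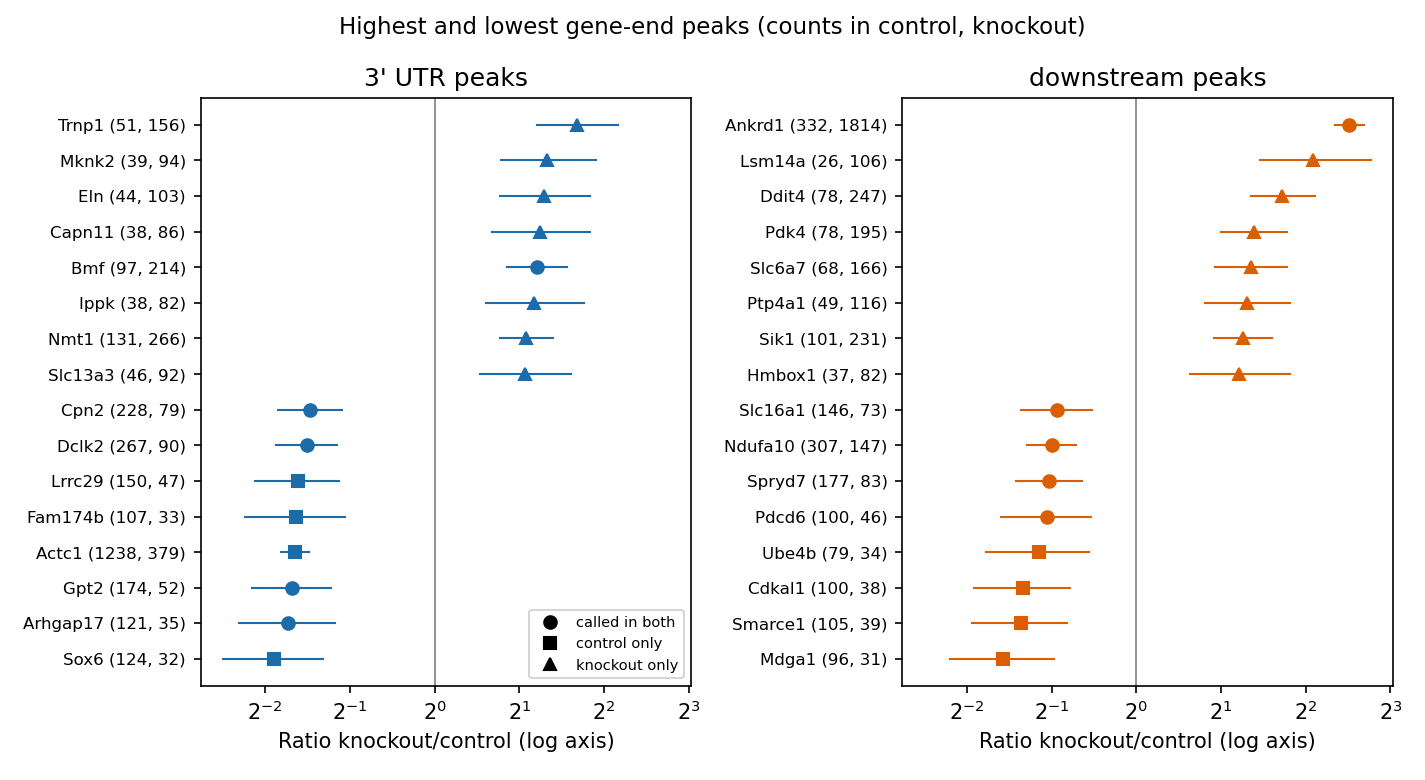
Ratio of knockout to control (x axis, logarithmic) at the 8 highest and 8 lowest named peaks of each class, with 95% counting intervals as bars, counts in brackets and marker shapes for the libraries in which a peak was called. Ankrd1 stands highest at 5.71, with the narrowest interval of the higher peaks, and Sox6 lowest at 0.270.

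Genes of fuel use had ratios on both sides of 1. Pdk4, the kinase that shuts down pyruvate dehydrogenase and so spares glucose, had 3 downstream peaks. They held 78 and 195 counts (2.61, 2.00 to 3.44), 216 and 280 (1.35, 1.13 to 1.63) and 409 and 473 (1.21, 1.06 to 1.38), from the farthest to the nearest to the gene. The ratio was thus largest in the peak farthest from the end, and all 3 were above equality. Cd36, the fatty acid transporter, had 71 and 107 counts (1.57, 1.16 to 2.16). Slc25a4, the heart form of the mitochondrial ADP/ATP carrier, named for its signal and not in the list, had one of the strongest downstream peaks, 1089 and 786 counts (0.754, 0.687 to 0.827), with a promoter ratio of 0.758. Ckmt2, the mitochondrial creatine kinase, had 39 and 26 counts (0.696, 0.407 to 1.17), and Cpt1b, the carnitine palmitoyltransferase of muscle mitochondria, had 166 and 114 (0.717, 0.560 to 0.916). Of 35 genes of the list 4 had gene-end peaks, with 4 of 6 peaks above equality, 3 of them from Pdk4. Past 2-fold were 1 peak on the higher side and none on the lower side. Of all 58076 peaks, 45.9% were above equality, 6.09% at least 2-fold higher and 8.96% at least 2-fold lower.

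Genes known as glucocorticoid receptor targets had ratios above 1 at all their gene-end peaks. Ddit4, an inhibitor of mTORC1 signalling, had 78 and 247 counts (3.31, 2.55 to 4.32), while its promoter held 532 and 720. Dusp1, a MAP kinase phosphatase, had 288 and 317 counts (1.15, 0.977 to 1.35). The 5 peaks of this list came from 3 of 22 genes, 3 of them from Pdk4, with a median log2 ratio of 0.44 and 2 past 2-fold. Over all peaks of the table, 45.9% were above equality and 6.09% were at least 2-fold higher. This list, too, was chosen with earlier results known. Immediate early and AP-1 genes had a median of 0.08 over 7 peaks with 5 above equality, and -0.10 on the RPM scale. Maff held 60 and 71 counts, Fosl2 100 and 73 (90 and 87 at its other peak), and Klf6 142 and 117 in their 3' UTR peaks, each with an interval that includes 1.

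Sik1, which encodes a salt-inducible kinase, had 3 downstream peaks. The farthest held 101 and 231 counts (2.39, 1.88 to 3.05), the middle 66 and 106 (1.68, 1.22 to 2.32) and the nearest 158 and 144 (0.952, 0.754 to 1.20). As at Pdk4, the ratio was higher in the peak farther from the gene. At both genes the farthest peak was named for its high ratio and called in the knockout alone. No relation with distance is therefore read from these genes.

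Other named downstream peaks that were higher were those of Lsm14a, a component of RNA processing bodies (26 and 106 counts, 4.26), Slc6a7, a proline transporter (68 and 166, 2.55), Ptp4a1, a protein tyrosine phosphatase (49 and 116, 2.47), and Hmbox1, a homeobox factor (37 and 82, 2.32). The promoters of Lsm14a, Ptp4a1 and Hmbox1 had ratios between 0.897 and 1.11. Named lower downstream peaks were those of Mdga1 (96 and 31 counts, 0.337), Smarce1, a subunit of the SWI/SNF remodelling complex (105 and 39, 0.388), Cdkal1 (100 and 38, 0.397), Ube4b (79 and 34, 0.450) and Pdcd6 (100 and 46, 0.481). The other Smarce1 peaks were not lower, with 28 and 32 counts and 34 and 34. Ndufa10, of mitochondrial complex I, had 307 and 147 counts (0.50, 0.408 to 0.611), and Slc16a1, a lactate transporter, had 146 and 73 (0.522, 0.389 to 0.696). Their promoters had ratios of 1.05 and 0.839, with intervals that include 1.

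Among named 3' UTR peaks, the highest ratio was at Trnp1, 51 and 156 counts (3.20, 2.32 to 4.47). The kinase gene Mknk2 had 39 and 94 (2.52, 1.72 to 3.76), Bmf, a pro-death BCL2 family gene, 97 and 214 (2.30, 1.80 to 2.96), and Nmt1, an N-myristoyltransferase, 131 and 266 (2.12, 1.71 to 2.64). Only the Bmf peak among these was called in both libraries. At Mknk2 a second, stronger peak just beyond the end did not share this, with 452 and 469 counts (1.08, 0.951 to 1.24).

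The lowest 3' UTR ratio among the named peaks was at Sox6, a factor of muscle fibre and red cell development, with 124 and 32 counts (0.270, 0.177 to 0.400). Its promoter held 223 and 224 counts. Gpt2, the mitochondrial alanine aminotransferase, had 174 and 52 counts (0.312, 0.224 to 0.428), with a promoter ratio of 0.729. Dclk2, a doublecortin-like kinase, had 267 and 90 (0.352), Cpn2, a carboxypeptidase N subunit, 228 and 79 (0.362), and Lrrc29, whose promoter was not lower at 310 and 363 counts, 150 and 47 (0.327). The Arhgap17 peak (121 and 35 counts, 0.302) is in the table's 3' UTR class, but its midpoint lies 44.4 kb before the RefSeq gene end.

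Other strong peaks also differed. Lars2, the mitochondrial leucyl-tRNA synthetase, had 893 and 1538 counts in its 3' UTR (1.80, 1.66 to 1.96). The 3' part of mouse Lars2 is known to resemble mitochondrial rRNA, and reads from mitochondrial DNA may be placed there. The table holds no peak on the mitochondrial chromosome, and the part of such reads in this value was not tested. Znrf1, a ubiquitin ligase, had 584 and 270 (0.483, 0.417 to 0.559), and Acvrl1, the endothelial BMP receptor ALK1, 345 and 469 (1.42, 1.23 to 1.64). A second 3' UTR peak of Acvrl1 went the other way, with 249 and 183 counts (0.768, 0.631 to 0.933), and the summed ratio was 1.15.

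Some genes had several gene-end peaks. A single gene-end peak was found at 1066 genes, 2 at 107 genes and 3 at 10 genes. Of the 117 genes with more than 1, all peaks had the same sign in 67 (57.3%), above equality in 38 and below it in 29. As 107 of these genes have only 2 peaks, unrelated signs would also match at many of them, and no relation is read from this share. All peaks were past 2-fold on the higher side at 4 genes, Adamts1, Csnk1d, Eln and Got2, and past 2-fold on the lower side at 2 genes, Fam174b and Gorab. Adamts1, a secreted metalloprotease, held 20 and 60 counts (3.13, 1.86 to 5.49) and 24 and 56 (2.44, 1.49 to 4.11), and was singled out with the others after its values were seen. Aak1, an endocytic kinase, was lower at each of 3 3' UTR peaks (120 and 79 counts, 193 and 117, 148 and 98), with a summed ratio of 0.666 (0.574 to 0.773). Gtf3c1, a subunit of RNA polymerase III factor TFIIIC, was also below equality at 3 peaks (summed ratio 0.642, 0.522 to 0.786), although the interval of 1 of them included 1. Vps53 was mixed, with a summed ratio of 1.02 (0.843 to 1.24). Several of these 3' UTR peaks lie far before the RefSeq gene end, at Aak1 by 13.5 and 11.9 kb, at Gtf3c1 by 22.8 and 35.4 kb and at Vps53 by 35.1 kb, as does 1 Csnk1d peak by more than 5 kb, so they share a gene and not a single end.

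The gene end and the promoter of the same gene were only weakly related. For 931 gene-end peaks at 832 genes a promoter peak could be compared, and Pearson's r of their log2 ratios across these peaks was 0.105 and Spearman's rho 0.098. Peaks are not independent replicates, and both values come from the same 2 libraries. The log2 ratio had an SD of 0.745 at gene ends and 0.323 at promoters. The signs were the same in 487 of 931 (52.3%). Where the gene end was at least 2-fold higher (76 peaks), the median promoter log2 ratio was -0.00072, and where it was at least 2-fold lower (81 peaks) it was -0.0026. With peaks called in both libraries r was 0.199 (438 peaks), and in the upper part of the signal 0.224 (504 peaks). The 4 genes past 2-fold at both places were Ankrd1, described above, Ralgps2, Lrtm1 and Kcnh6. Ralgps2, a guanine exchange factor for Ral, was lower at its end (44 and 12 counts) and its promoter (55 and 22). Lrtm1 was lower at its end (42 and 19) and its promoter (138 and 31). Kcnh6, a potassium channel, was higher at its end (14 and 29) and lower at its promoter (62 and 27).

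**Figure D5:**
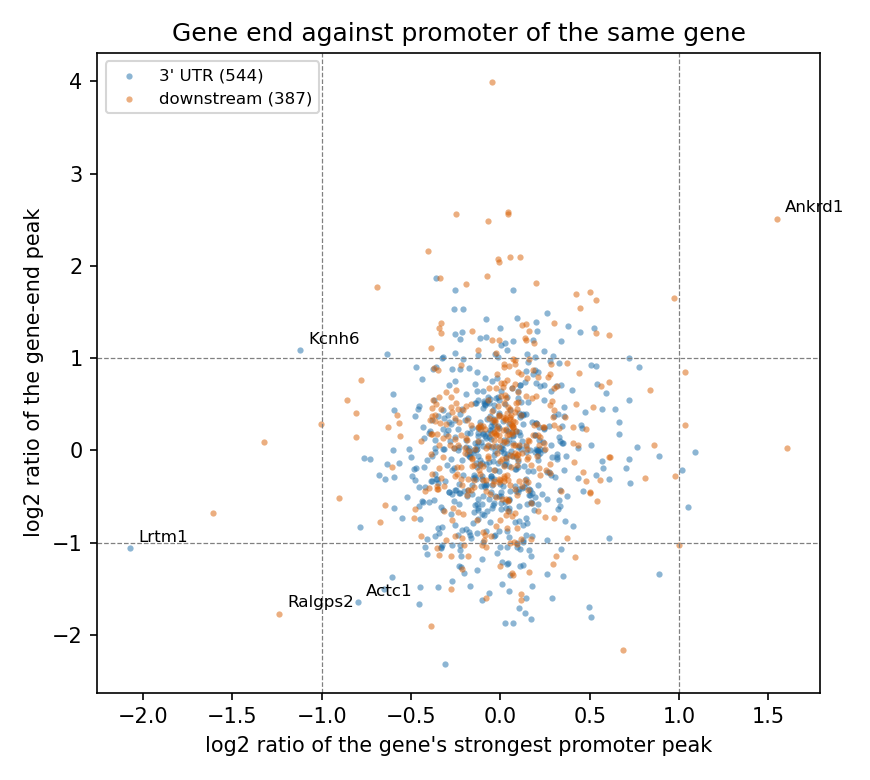
Log2 ratio of knockout to control at the strongest promoter peak (x axis) and at the gene-end peak of the same gene (y axis) for 931 gene-end peaks, blue for 3' UTR and orange for downstream, with dashed lines at 2-fold. The points spread far more along the gene-end axis than along the promoter axis (SD 0.745 against 0.323), and Ankrd1 lies at 2.51 on the gene-end axis and 1.55 on the promoter axis.

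Genes that handle RNA were read in 3 lists. No peak lay at the end of any of 28 genes of cleavage and polyadenylation. Of 22 writers, readers and erasers of m6A, 2 had a peak, the cytoplasmic reader Ythdf1 downstream (28 and 13 counts, 0.485, 0.231 to 0.968) and the methyltransferase Mettl16 in its 3' UTR (46 and 53, 1.20). Of 33 splicing regulators 6 had a peak, 5 of 6 below equality, with a median log2 ratio of -0.34 and none past 2-fold. Sf3b1, of the U2 snRNP, was the exception with 22 and 42 counts (1.99, 1.16 to 3.51), while Celf2 had 40 and 25 and U2af1 41 and 29. The intervals of the 5 lower peaks all included 1. Over all peaks of the table, 45.9% were above equality. Housekeeping genes had 3 peaks, with a median of 0.36, among them those of Pgk1 (34 and 44 counts, 1.35) and Tuba1b (120 and 112, 0.975). The cell cycle list (34 genes) had no gene-end peak, and the p53 target list had 1, at Zmat3 (54 and 59 counts, 1.14, 0.776 to 1.68). Across all 21 lists, 48 of 523 genes had a gene-end peak, 59 peaks in all, with a median of -0.05, the same as over all peaks.

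Markers of other cell types were read at the same peaks. Cx3cr1, a receptor of macrophages, had 26 and 71 counts in its 3' UTR (2.85, 1.80 to 4.66), called in the knockout alone, and was the only 1 of 24 myeloid and lymphoid markers with a gene-end peak. Only 1 of those 24 markers had a promoter peak. Fabp4, of capillary endothelium and fat, had downstream peaks of 118 and 227 counts (2.01, 1.60 to 2.53) and 52 and 89 (1.79, 1.26 to 2.57). The endothelial receptor Kdr had 374 and 328 (0.916), and the smooth muscle gene Lmod1 98 and 131 (1.40, 1.07 to 1.83). Fabp4 was also the only adipocyte marker with a gene-end peak. The airway secretory gene Scgb1a1, of the epithelial and lung list, had 104 and 138 counts downstream (1.39, 1.07 to 1.81), and none of the 12 markers of that list had a promoter peak. No fibroblast or skeletal muscle marker had a gene-end peak. At promoters, 27 of 32 endothelial markers had a peak, with a summed level of 669 CPM in the control and 720 CPM in the knockout. Fibroblast markers had 14 of 22 (145 and 164 CPM), smooth muscle and pericyte markers 10 of 18 (205 and 219 CPM), and cardiomyocyte markers 6 of 8 (340 and 329 CPM). On the RPM scale the knockout sums were 639 for endothelial, 146 for fibroblast, 194 for smooth muscle and pericyte and 292 for cardiomyocyte markers, so the direction of the endothelial sum and of the smooth muscle and pericyte sum depends on the scaling. The part of these levels in the gene-end values was not tested.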

How the data were processed

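ATAC-seq of mouse heart, with 1 library per genotype, was used as deposited. Per the submitters' processing notes, BWA, MACS2 and GRCm38.p6 were used, with versions, duplicate removal and Tn5 shift not stated in these sources. Deposited counts are raw whole numbers for each merged peak, per the file headers. The deposited RPM values equal (count + 1) times 1 constant per library. The deposited fold enrichment (a ratio) and the deposited log2 fold change were not used for the results.

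Counts were scaled by column sums, 6755590 and 6466537 counts, which are 13.3% and 11.8% of the library totals that the RPM constants imply. Gene ends came from RefSeq, in which strand was known for 92.1% of 21883 coding genes, by distance for downstream peaks (up to 3000 bases) and by overlap for 3' UTR peaks. RefSeq tables gave no exons, so UTRs were not checked. Peak starts are as the deposited table gives them. Named peaks were, per class and with signal at or above the class median, the 8 highest and 8 lowest ratios, the 5 strongest, up to 3 per gene list with at least 20 counts, and up to 5 genes with the most peaks. Some named peaks are not reported here. Members and lists were chosen with earlier results of these data known. Alternatives were TMM (edgeR 4.0.16), median centring, another pseudocount, filters and the RPM scale. Steps were tested on simulated data. Python 3.11.15, pandas 2.3.3 and SciPy 1.17.1 were used.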

Additional observations from a re-analysis of the deposited data

How the results depend on the processing

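No paired analysis was possible because each genotype had 1 library and no replicate number. Leaving out a library was not possible for the same reason. The medians were near 0 and moved with the scaling. With TMM the median log2 ratio was 0.063 over gene-end peaks and 0.025 in 3' UTRs, and with median centring 0.062 and 0.025. On the RPM scale, chosen after seeing the data, 90 peaks were higher, and the medians were -0.16, -0.20 in 3' UTRs and -0.11 downstream, where the sign turned. In the upper part of the signal, 22 peaks were higher and 25 lower, with medians of 0.078 and 0.042 in 3' UTRs, and 7.56% of 3' UTR and 6.31% of downstream peaks were past 2-fold. For peaks called in both libraries, 5 were higher and 13 lower, with medians of 0.085 and 0.044 in 3' UTRs, and 2.73% and 2.31% past 2-fold. With a pseudocount of 5, 12.6% and 15.2% were past 2-fold. With a 1.5-fold rule, 271 were higher, 302 lower, and 38.1% and 36.7% were past it. The cause was not tested, except that the filters keep fewer peaks and the 1.5-fold rule is wider. The difference between the class medians, 3' UTR minus downstream, was -0.09 and kept its sign in each alternative run. TMM and median centring move all ratios by the same amount, and the RPM scale nearly so, so these runs could not change the order. Only the runs with another pseudocount or with filters could have changed it. Of 249 values of named peaks under the alternatives, 245 stayed within counting error of the main value, and 4 moved on the RPM scale. TMM and the RPM scale move all these values nearly alike and by a small amount, so peaks with wide intervals could hardly move. Median counts of 58 and 54 per peak limit single ratios.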
